A study of Homo sapiens with 34 samples.

Results

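Trimethylation and monomethylation of lysine 4 of histone H3 were compared in the control arm of a ChIP-seq experiment in KELLY cells, a human neuroblastoma line with an amplified MYCN gene. Of 34 samples in the series, 30 of which have a peak list, the 6 used here are the DMSO lists of the 2 marks, with 3 for H3K4me1 and 3 for H3K4me3. They were chosen by the antibody and treatment named in the labels, not by any measured value, and peaks on chromosomes 1 to 22 and X were kept. All 6 came from 1 line carrying a doxycycline-inducible shRNA to Runx1t1, given DMSO and no doxycycline, and cells were fixed after 72 h. The labels do not say whether replicates were separate cultures, so the spread given below may be technical. The comparison addresses which parts of the genome carry each mark before any knockdown.

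The enzymes that place these marks belong to the KMT2 and SETD1 families, and the number of methyl groups differs by type of element. H3K4me3 is known as the mark of active or poised gene starts, most of them rich in CpG dinucleotides. H3K4me1 is known from enhancers and from the shoulders of promoters, and H3K27ac and H3K27me3 then separate active elements from those under Polycomb.

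The lists held 147426, 102186 and 137227 H3K4me1 peaks and 26514, 26332 and 24274 H3K4me3 peaks in replicates 1, 2 and 3. Libraries had 71.9 to 81.1 M reads after filtering, so depth was similar for the marks. H3K4me1 peaks covered 5.86 to 8.36% of the genome and were on median 2.27 to 2.60-fold enriched over input. H3K4me3 peaks covered 1.21 to 1.43% and were on median 14.2 to 19.8-fold enriched. The authors called H3K4me1 in broad mode, at q 0.05 for strong and q 0.1 for weak regions, and H3K4me3 in narrow mode at p 1e-05. The lowest −log10 q in a list was 1.00 to 1.01 for H3K4me1 and 3.09 to 3.16 for H3K4me3. In every comparison of the lists below, mark and calling mode thus cannot be told apart.

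Promoters with only one of the marks differed in CpG content, which 5 of them illustrate. The 250 bases upstream of the outermost annotated start are shown on the strand of the gene, from hg38, in lower case with each CpG in capitals. The genes were those with the mark in 3 of 3 lists, the other mark in 0 of 3 and among the strongest peaks by rank within their lists. The first set had only H3K4me3 and came from chr7:35800682-35800931 on the plus strand before SEPTIN7, which encodes a cytoskeletal septin, and from chr22:41446802-41447051 on the minus strand before TOB2, an antiproliferative factor.
SEPTIN7: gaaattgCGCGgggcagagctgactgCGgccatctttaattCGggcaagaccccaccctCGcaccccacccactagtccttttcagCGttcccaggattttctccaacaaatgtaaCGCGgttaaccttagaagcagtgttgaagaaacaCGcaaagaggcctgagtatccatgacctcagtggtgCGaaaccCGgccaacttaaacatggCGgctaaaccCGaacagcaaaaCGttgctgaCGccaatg
TOB2: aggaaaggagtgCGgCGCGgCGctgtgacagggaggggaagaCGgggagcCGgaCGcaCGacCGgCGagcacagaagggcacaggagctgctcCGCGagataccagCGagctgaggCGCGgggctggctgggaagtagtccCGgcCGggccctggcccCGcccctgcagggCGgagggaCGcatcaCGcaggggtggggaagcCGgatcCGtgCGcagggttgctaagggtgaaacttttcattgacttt
The second set had only H3K4me1 and came from chr1:156248118-156248367 on the minus strand before PAQR6, a membrane progestin receptor, from chr7:130380089-130380338 on the plus strand before CPA1, a pancreatic carboxypeptidase, and from chr22:50085427-50085676 on the minus strand before MLC1, a membrane protein of astrocytes.
PAQR6: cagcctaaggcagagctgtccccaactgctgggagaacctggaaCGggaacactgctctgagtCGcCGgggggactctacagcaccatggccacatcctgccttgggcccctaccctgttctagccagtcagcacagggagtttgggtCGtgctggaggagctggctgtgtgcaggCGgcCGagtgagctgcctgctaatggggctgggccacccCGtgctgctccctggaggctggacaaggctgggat
CPA1: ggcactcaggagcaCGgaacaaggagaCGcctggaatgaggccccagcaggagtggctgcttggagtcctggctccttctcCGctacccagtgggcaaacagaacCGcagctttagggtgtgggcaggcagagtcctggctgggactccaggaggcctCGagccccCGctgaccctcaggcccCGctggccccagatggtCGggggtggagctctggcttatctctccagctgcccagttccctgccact
MLC1: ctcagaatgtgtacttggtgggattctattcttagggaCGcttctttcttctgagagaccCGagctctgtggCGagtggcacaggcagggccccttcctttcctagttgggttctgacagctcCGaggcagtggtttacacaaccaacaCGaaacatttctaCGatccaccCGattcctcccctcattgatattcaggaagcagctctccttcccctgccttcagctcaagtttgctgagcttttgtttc
The windows held 15 and 24 CpGs before SEPTIN7 and TOB2, against 7, 8 and 7 before PAQR6, CPA1 and MLC1. GC content overlapped between the sets, being 52.8 and 68.4% in the first and 64.4, 65.6 and 51.2% in the second. All 5 windows lie before every annotated start of their gene, and those of SEPTIN7 and TOB2 overlap exons annotated to other transcripts, SEPTIN7-DT and an unnamed gene.

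H3K4me3 lay at gene starts and H3K4me1 lay mostly away from them. In the 3 lists 55.6, 55.3 and 62.1% of H3K4me3 peaks had their midpoint within 1 kb of a start of a protein-coding gene, against 11.8, 14.3 and 11.7% of H3K4me1 peaks. The groups did not overlap, and the means were 57.7% ± 3.82 and 12.6% ± 1.49 (SD, n = 3 each), a difference of 45.1 percentage points. The exact two-sided permutation test over 20 assignments of the lists gave p = 0.1, the smallest value 3 against 3 lists allow, so no such comparison here can pass 0.05. Weighted by length the contrast was of similar size, with 65.5% ± 2.97 of H3K4me3 bases and 12.3% ± 1.27 of H3K4me1 bases (SD, n = 3 each) inside these windows (exact permutation p = 0.1).

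The typical H3K4me3 peak was about 0.5 kb from a start, with medians of 0.593, 0.583 and 0.454 kb. The typical H3K4me1 peak was much farther, with medians of 22.99, 18.6 and 22.9 kb. Means of the log10 distance in bp differed by -1.60 for H3K4me3 minus H3K4me1 (exact permutation p = 0.1). Outside promoter windows, 47.1% ± 0.457 of H3K4me1 bases lay in gene bodies and 40.6% ± 0.865 were intergenic (SD, n = 3). The corresponding H3K4me3 shares were 18.3% ± 1.81 and 16.2% ± 1.18. Peaks over 100 kb from any start made up 19.9 to 23.4% of H3K4me1 lists and 6.50 to 8.02% of H3K4me3 lists.

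**Figure D1:**
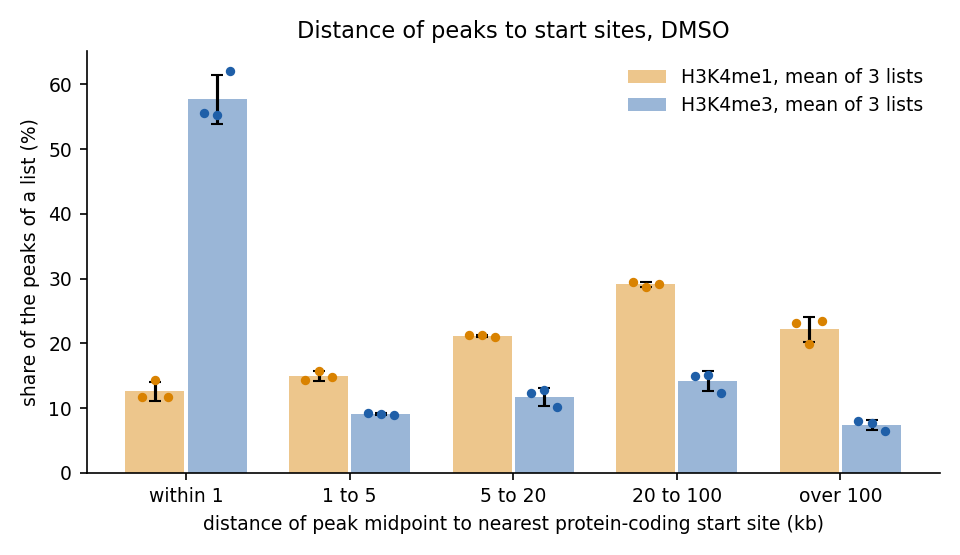
Share of the peaks of each list (%) by distance of the peak midpoint to the nearest protein-coding start site (kb), with bars for the mean of 3 lists, error bars for the SD and points for the lists. The H3K4me3 lists sit between 55.3 and 62.1% within 1 kb, where no H3K4me1 list exceeds 14.3%, and H3K4me1 is the higher mark in every bin beyond it.

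Nearly every H3K4me3 peak met H3K4me1, but few H3K4me1 peaks met H3K4me3. In same-numbered lists, 96.2, 89.7 and 89.3% of H3K4me3 peaks shared at least 1 bp with an H3K4me1 peak, whereas 19.8, 25.1 and 18.2% of H3K4me1 peaks shared a base with H3K4me3. By bases, 65.5, 57.8 and 49.4% of H3K4me3 was also under H3K4me1, and replicate 1 was the highest. Over the regions supported by all 3 lists of a mark (78277 for H3K4me1 and 21470 for H3K4me3), 21148 H3K4me1 regions (27.02%) touched H3K4me3. The others lay a median of 44.04 kb from the nearest H3K4me3 region, and 26551 H3K4me1 regions (33.9%) were over 50 kb away.

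H3K4me1 flanked most H3K4me3 peaks on both sides. With a flank counted where H3K4me1 covered at least 1 bp of the adjoining 1 kb, both sides were flanked at 82.5, 63.1 and 63.6% of H3K4me3 peaks, a mean of 69.7% ± 11.0 (SD, n = 3 pairs). A single side was flanked at 20.6% ± 6.75 and neither side at 9.69% ± 4.63. Pair 1 stood apart, and its H3K4me1 list was also the longest. The share depended on the H3K4me1 threshold, falling to 53.5% with peaks of q 0.001 or less and to 14.3% with q 1e-10 or less. Where at least 50% of each flank had to be covered it was 30.3%.

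H3K4me1 left the centre of H3K4me3 peaks free more often at gene starts than at distal sites. It covered the midpoint of 49.5, 44.5 and 36.8% of H3K4me3 peaks within 1 kb of a start, against 88.6, 82.9 and 75.5% of those over 5 kb away. Paired shoulders, with both outer edges covered but not the midpoint, were found at 28.9% ± 7.05 of start-site peaks and at 2.54% ± 0.864 of distal peaks (SD, n = 3 pairs). These shares are over all widths. Among peaks under 1 kb the share was 0% in both settings, and the contrast was smaller at the matched widths given below. In each pair start-site peaks with H3K4me1 at the midpoint still outnumbered those with paired shoulders. Distal H3K4me3 peaks were narrower, with a median width of 617 bp ± 48.4 against 1975 bp ± 146, and 70.5% ± 8.25 of them lay wholly inside H3K4me1, against 31.3% ± 8.01 of start-site peaks. Both-sided flanks were found at 81.3, 55.6 and 59.9% of start-site peaks and at 82.6, 71.8 and 68.6% of distal ones. Start-site peaks had the lower share in 3 of 3 pairs, with a mean difference of -8.74 percentage points. The exact permutation test, which ignores the pairs, gave p = 0.4, and the exact sign-flip test within pairs gave p = 0.25, its smallest value. With lists of equal length the difference was -24.4 points and with at least 50% of the flank covered -25.2 points (exact permutation p = 0.1 each).

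Midpoint cover was lower in wider peaks in both settings. Among start-site peaks of 0.5 to 1 kb, H3K4me1 covered the midpoint of 81.1% ± 8.70, and among those of 2 to 3 kb of 21.5% ± 7.54. Distal peaks of the same width classes gave 87.3% ± 6.26 and a range of 31.2 to 50.8% (n = 3 pairs). At 3 to 5 kb the values were 16.6% ± 2.67 at starts and 31.7% ± 5.07 at distal sites. Paired shoulders were more frequent in wide peaks in both settings. At 1 to 1.5 kb they were found at 0.947% ± 1.01 of start-site and 0.245% ± 0.182 of distal peaks. At 2 to 3 kb they were found at 48.3% ± 13.8 of start-site and 28.6% ± 9.62 of distal peaks. At 3 to 5 kb the shares were 60.8% ± 11.0 and 41.2% ± 9.98. Start-site peaks had the higher share in each pair in both of these wider classes, but the ranges over the pairs overlapped at 2 to 3 kb. How far the linking of weaker H3K4me1 regions in broad mode closes short gaps, and so sets the rise with width, was not tested. Flanking on both sides did not follow width in 1 direction. At starts it was found at 66.9% ± 10.04 of peaks under 0.5 kb, 58.0% ± 13.6 of those of 1 to 1.5 kb and 78.5% ± 11.9 of those of 3 to 5 kb. At distal sites the shares were 77.7% ± 5.53, 73.5% ± 10.7 and 67.3% ± 12.2 in the same classes. Neither side was flanked at 15.1% ± 5.64, 13.7% ± 7.45 and 3.61% ± 3.00 of these start-site peaks.

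The H3K4me1 signal peaked just inside the H3K4me3 edge. At start-site H3K4me3 peaks of 2 kb or more (7933, 8131 and 6527 in the 3 lists), H3K4me1 was present at 83.1% ± 8.94 of edges 100 bp inside and at 25.7% ± 7.07 of positions 1 kb inside. Outside the edge it fell to 44.8% ± 7.71 at 500 bp, 27.2% ± 4.63 at 1 kb and 12.8% ± 1.89 at 5 kb (SD, n = 3 pairs). H3K4me2, the dimethyl form, called in narrow mode like H3K4me3, covered 94.7% ± 5.52 of positions 250 bp inside, 82.4% ± 13.6 of positions 1 kb inside and 11.6% ± 7.96 of positions 500 bp outside. Distal H3K4me3 peaks, which were taken at any width, had longer H3K4me1 shoulders. At 1 kb 43.0% ± 5.21 of their edges were still covered, and at 5 kb 22.7% ± 3.65. The length of uninterrupted H3K4me1 from the edge was measured with gaps of up to 200 bp bridged. Over all widths its median was 302 bp ± 109 at start-site and 703 bp ± 190 at distal peaks. The distal median was also longer in the narrower width classes. Among peaks of 500 to 1000 bp the medians were 220 bp ± 72.3 at start-site and 662 bp ± 214 at distal peaks. At 1000 to 1500 bp they were 178 bp ± 81.5 and 534 bp ± 176. The ranges over the pairs did not overlap in these classes, nor under 500 bp or at 1500 to 2000 bp. Among peaks of 2 to 3 kb the medians were 326 bp ± 113 and 377 bp ± 97.8, and their ranges overlapped. At 3000 to 5000 bp the order turned, with 555 bp ± 159 and 419.5 bp ± 170, and the ranges overlapped.

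**Figure D2:**
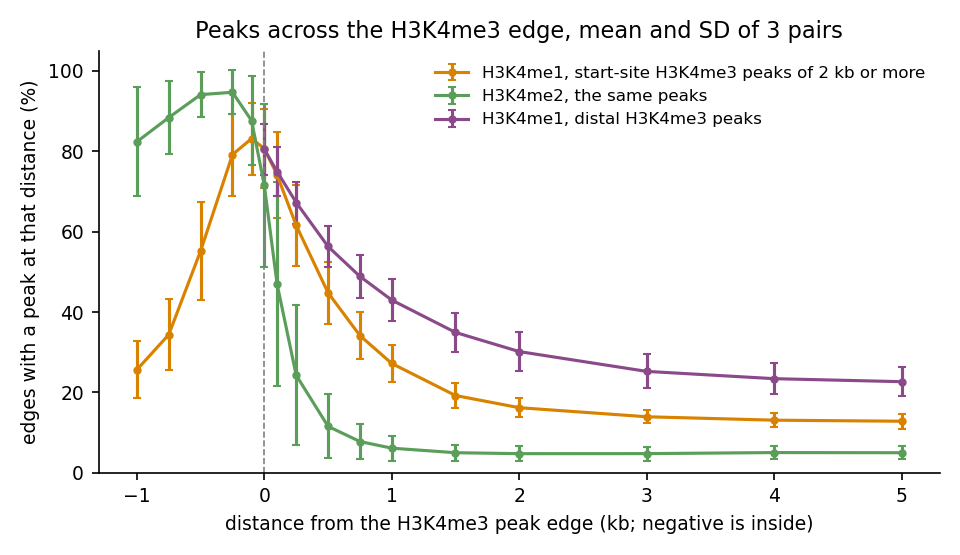
Share of H3K4me3 peak edges (%) at which a peak of H3K4me1 or H3K4me2 lies, by distance from the edge (kb, negative inside), as mean and SD of 3 same-numbered pairs. At wide start-site peaks H3K4me1 is highest 100 bp inside (83.1%) and drops in both directions. H3K4me2 there is highest 250 bp inside (94.7%) and drops steeply outwards and less inwards (82.4% at 1 kb inside). H3K4me1 at distal peaks, which are of any width, falls most slowly.

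The shoulders were asymmetric along the gene. At H3K4me3 peaks holding starts of one strand only (12632, 12565 and 12507), the median H3K4me1 length was 585, 289 and 425 bp on the downstream side, towards the gene body, and 278, 118 and 176 bp on the upstream side. The downstream side was longer in 3 of 3 pairs, by a mean of 242 bp, and the groups did not overlap (exact permutation p = 0.1). H3K4me1 reached farther downstream at 57.7% ± 5.52 of these peaks and farther upstream at 31.9% ± 0.672. With H3K4me1 peaks of q 0.001 or less the means were 168 bp downstream and 80 bp upstream, an excess of 88 bp (exact permutation p = 1). With q 1e-10 or less or lists of equal length the median was 0 bp on both sides, so these settings could show no excess.

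Read from the start site, H3K4me1 had 2 maxima around an H3K4me3 plateau. Genes with consensus H3K4me3 at their canonical start were split into 11114 with no start on the opposite strand within 2 kb and 2812 with one. In the first group H3K4me1 was present at 50.7% ± 8.35 of genes 750 bp upstream, 36.5% ± 6.35 at the start and 54.3% ± 7.48 at 1 kb downstream. In the second group the upstream maximum lay farther out, with 51.6% ± 7.65 at 1.5 kb, and only 17.9% ± 3.46 had H3K4me1 at the start itself. H3K4me3 covered 28.7% ± 2.65 of the first group and 76.0% ± 2.39 of the second at 1 kb upstream (SD, n = 3 lists). Peaks holding starts of both strands were wider, with a median of 2648 bp ± 135 against 1996 bp ± 122.

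**Figure D3:**
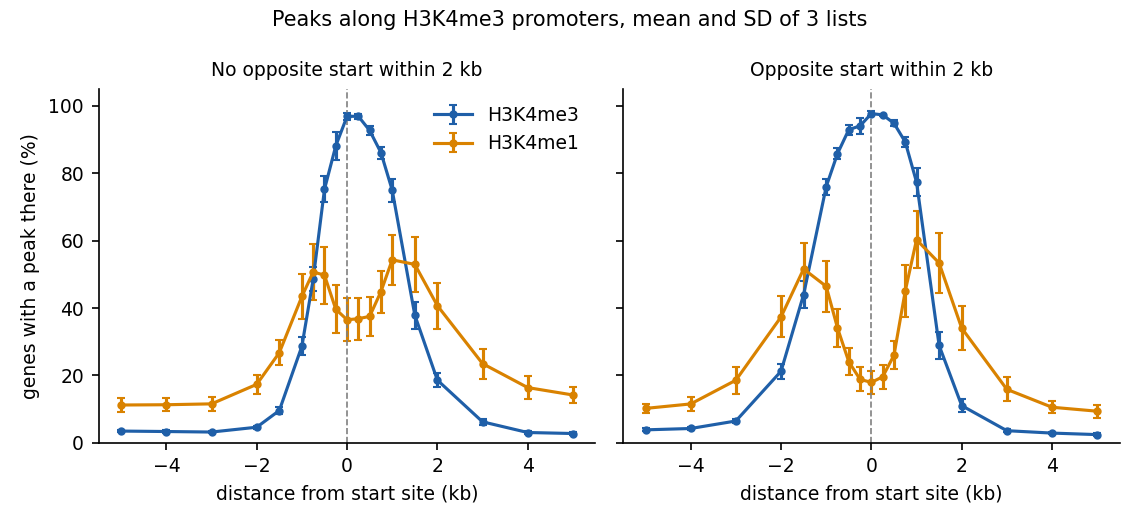
Share of genes (%) with a peak at each distance from the canonical start (kb, positive into the gene), as mean and SD of 3 lists, for genes without and with a start on the opposite strand within 2 kb. H3K4me3 forms a plateau near 97% at the start, and H3K4me1 has a trough there (36.5 and 17.9%) between maxima on either side.

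With the lists as deposited, most genes carried both marks, each near some annotated start. A promoter was the 1 kb either side of any annotated start of a gene, and a mark was scored where a region supported by all 3 of its lists touched it. The 2 marks of a gene could thus lie at different starts. Of 19970 protein-coding genes, 12481 (62.5%) had both marks, 2040 (10.2%) had only H3K4me3, 1296 (6.49%) had only H3K4me1 and 4153 (20.8%) had neither. With 1 start site per gene 11273 genes had both. Single start sites had both marks at 63701 of 146165 (43.6%) and neither at 54866 (37.5%). Annotated starts per gene had a median of 7 in genes with both marks, 6 with only H3K4me3, 4 with only H3K4me1 and 2 with neither. Genes with both were no longer the majority with peaks of q 0.001 or less (6995), of q 1e-10 or less (403) or with lists of equal length (3720). Counted in single pairs, genes with only H3K4me3 numbered 633, 2025 and 1498, and those with only H3K4me1 numbered 1668, 1328 and 1509. The ranges overlapped and the order turned in pair 2, and the log2 ratio of the mean counts was -0.12 (exact permutation p = 0.8). Neither class was the larger beyond the spread, and the ratio turned to 2.41 with q 0.001 or less and to 0.31 without replicate 1.

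Most genes with only H3K4me3 had an H3K4me1 peak in some list. Of the 2040 genes, 888 had an H3K4me1 peak in 2 lists, 538 in 1 and 496 (24.3%) in none. Another 118 (5.78%) had one in all 3 lists, in places that did not join into a single region of the 3 lists. The class with only H3K4me1 was sharper, since 1078 of 1296 genes (83.2%) had no H3K4me3 peak in any list. With the strict rule of 3 of 3 lists of one mark and 0 of 3 of the other, 495 genes (2.48%) had only H3K4me3 and 964 (4.83%) only H3K4me1. In the doxycycline lists, which share no library with these, 68.3% of the 2040 and 75.5% of the 1296 genes fell into the same class.

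The nearest region of the missing mark typically lay many kb away in both classes. The distances are to different marks, with 78277 H3K4me1 and 21470 H3K4me3 regions, and were not compared between the classes. Genes with only H3K4me3 lay a median of 24.1 kb from the nearest H3K4me1 region supported by all 3 lists. Of the 2040, 407 (19.95%) had such a region within 2 kb, and only 496 had no H3K4me1 peak at the promoter in any list. Genes with only H3K4me1 lay a median of 16.6 kb from H3K4me3, with 278 of 1296 (21.5%) within 5 kb and 275 (21.2%) over 50 kb away. Among single start sites, 12934 of 146165 (8.85%) had only H3K4me1, and 8866 of these (68.5%) belonged to a gene with H3K4me3 at another start. Alternative starts thus carried H3K4me1 alone in 3543 of the 14521 genes with H3K4me3.

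CpG content separated the one-mark classes. The CpG ratio, observed over expected in the 500 bp either side of the canonical start, had a mean of the pair medians of 0.789 ± 0.00315 in genes with only H3K4me3 and 0.277 ± 0.00279 in genes with only H3K4me1 (SD, n = 3 pairs, difference 0.513, exact permutation p = 0.1). Over the consensus classes the middle 50% ran from 0.685 to 0.870 and from 0.201 to 0.452. Genes with both marks had a median of 0.782, like the genes with only H3K4me3 (0.784), and genes with neither had 0.247. A ratio over 0.6 was found in 86.7% of genes with only H3K4me3 and 16.0% of those with only H3K4me1. The letters TATAAA were sought on either strand from 250 bases before to 50 after the canonical start. They occurred in 6.67% and 14.3% of the one-mark classes, against 9.73% of all promoters and 24.1% of those with neither mark. In the strict classes the shares were closer, at 11.5% with only H3K4me3 and 14.2% with only H3K4me1.

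The other marks differed as well. In single pairs, H3K27ac lay at 89.7, 89.7 and 89.7% of promoters with only H3K4me3 and at 39.0, 39.8 and 32.5% of promoters with only H3K4me1. H3K4me2 lay at 92.1, 90.3 and 84.7% against 51.4, 29.2 and 21.4%. Neither pair of groups overlapped (exact permutation p = 0.1 each, 0.1 after Benjamini-Hochberg adjustment over the 3 marks). H3K27me3, the Polycomb mark, went the other way at 9.95, 6.47 and 9.21% against 35.0, 29.97 and 32.9% (exact permutation p = 0.1). All 3 differences depended on the threshold of the H3K4 marks. With q 1e-10 or less the means were 88.9 and 85.9% for H3K27ac (difference 2.99 points, exact permutation p = 0.4), 98.6 and 84.8% for H3K4me2, and 18.9 and 9.42% for H3K27me3, whose direction turned. With lists of equal length the H3K27ac difference was 16.7 points.

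Combining consensus calls, 448 of the 1296 promoters with only H3K4me1 (34.6%) had H3K27ac without H3K27me3, 356 (27.5%) had H3K27me3 without H3K27ac and 463 (35.7%) had neither. Of the 2040 with only H3K4me3, 1720 (84.3%) had H3K27ac without H3K27me3. The H3K4me3 region had a median width of 2191 bp in genes with only H3K4me3 and 2416 bp in genes with both. Median H3K4me3 fold enrichment at the promoter was 21.4 to 33.1 and 21.6 to 39.6 in these classes across lists. H3K4me1 at promoters with only that mark had a median fold enrichment of 2.39 to 3.07, against 2.52 to 3.19 where both were present.

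**Figure D4:**
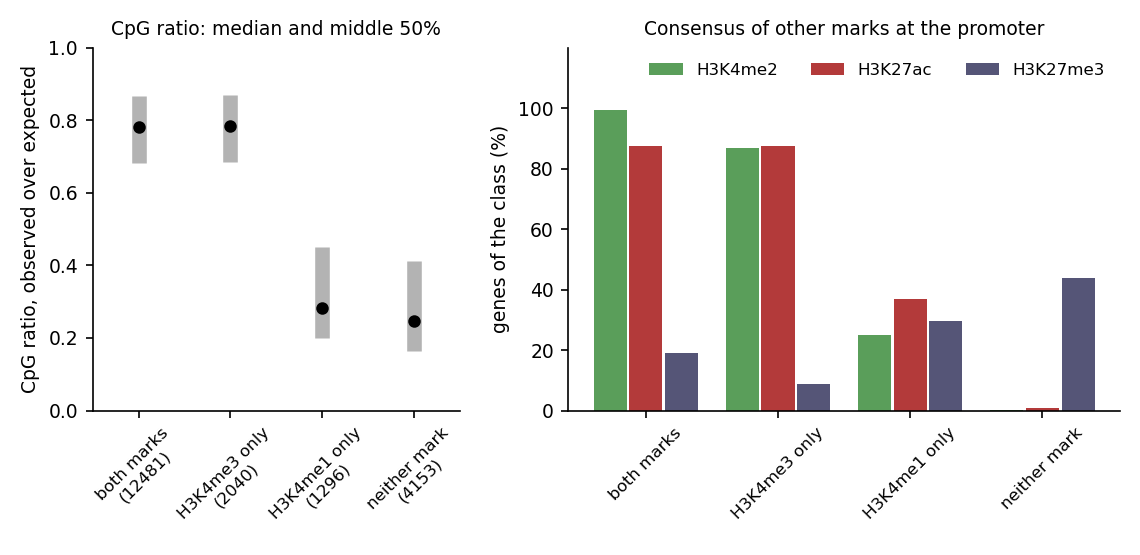
Left, CpG ratio (observed over expected) of the 4 promoter classes, with points for medians and bars for the middle 50%, and the number of genes in brackets. Right, share of each class (%) with a consensus region of H3K4me2, H3K27ac or H3K27me3. The classes with H3K4me3 have CpG medians near 0.78 and H3K27ac at over 87%, and those without have medians of 0.283 and 0.247.

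Gene groups differed in their classes, and the lists were read against the 62.5% of all genes with both marks and the 10.2% and 6.49% with only H3K4me3 or only H3K4me1. Over all genes, consensus H3K27ac lay at 66.2% of promoters and H3K27me3 at 23.8%. Most genes that every cell uses carried both marks. Among 83 cytosolic ribosomal protein genes 74 had both marks and 7 only H3K4me3, including RPL17, RPL27A, RPL31 and RPL41, and the exceptions without H3K4me3 were the tissue-restricted copies RPL3L and RPL10L. Of 14 proteasome core subunits 13 had both, and PSMA1 had only H3K4me3. Of 32 cell cycle and replication genes 26 had both and 6 had only H3K4me3, among them the kinase BUB1, cyclin CCNA2 and the helicase subunits MCM4 and MCM6. Among 18 H3K4 methyltransferase and demethylase genes 16 had both, and ASH2L and KMT2A had only H3K4me3.

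Zinc finger genes named ZNF held the largest number of H3K4me3-only promoters of the lists, with 138 of 508 (27.2%), for example ZNF10, ZNF100, ZNF124 and ZNF135. Their median CpG ratio was 0.734 and 32 met the strict rule. H3K4me1 alone was seen at 3 of them, ZNF366, ZNF750 and ZNF831. Many ZNF genes lie in clusters of similar sequence, and reads of low mapping quality had been removed, so their calls are less certain.

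Genes of other lineages mostly had H3K4me1 alone or no mark. Of 20 skeletal and heart muscle genes 10 had only H3K4me1, such as ACTC1, DES, MYH3 and MYH6, and 6 had neither. The other 4 (ACTA1, CKM, MYOD1 and TNNT1) had both marks. Of 20 T and B cell genes 7 had only H3K4me1, including CD4, CD7 and CD79A, and the other 13 had neither, so none carried consensus H3K4me3. Among 20 hepatocyte genes 4 had only H3K4me1, all encoding apolipoproteins (APOA1, APOA2, APOB and APOC3), and 13 had neither. CPS1 and TF had both marks and CYP2E1 only H3K4me3. Of 55 keratins 13 had only H3K4me1, for example KRT13, KRT15, KRT16 and KRT17, and the simple epithelial pair KRT8 and KRT18 had both. Of 67 interleukin and interferon genes 7 had only H3K4me1, 49 neither, 10 both and 1 only H3K4me3 (IL5). In contrast 93 of 94 keratin-associated protein genes and 399 of 400 olfactory receptor genes had neither, the exceptions being KRTAP10-6 with only H3K4me1 and OR1F1 with both.

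HOX genes, which pattern the body axis, were divided. Of 39, 19 had both marks, 2 only H3K4me3 (HOXA4 and HOXB13), 8 only H3K4me1 (such as HOXA3, HOXA5, HOXA10 and HOXA11) and 10 neither. H3K27me3 was present at 30 of 39 and H3K27ac at 12, against 23.8% and 66.2% of all genes. The median CpG ratio over all 39 was 0.775. All 32 synapse and excitability genes had H3K4me3, and 5 lacked consensus H3K4me1, among them the sodium channel genes SCN2A, SCN3A and SCN9A and the synapsin gene SYN1.

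**Figure D5:**
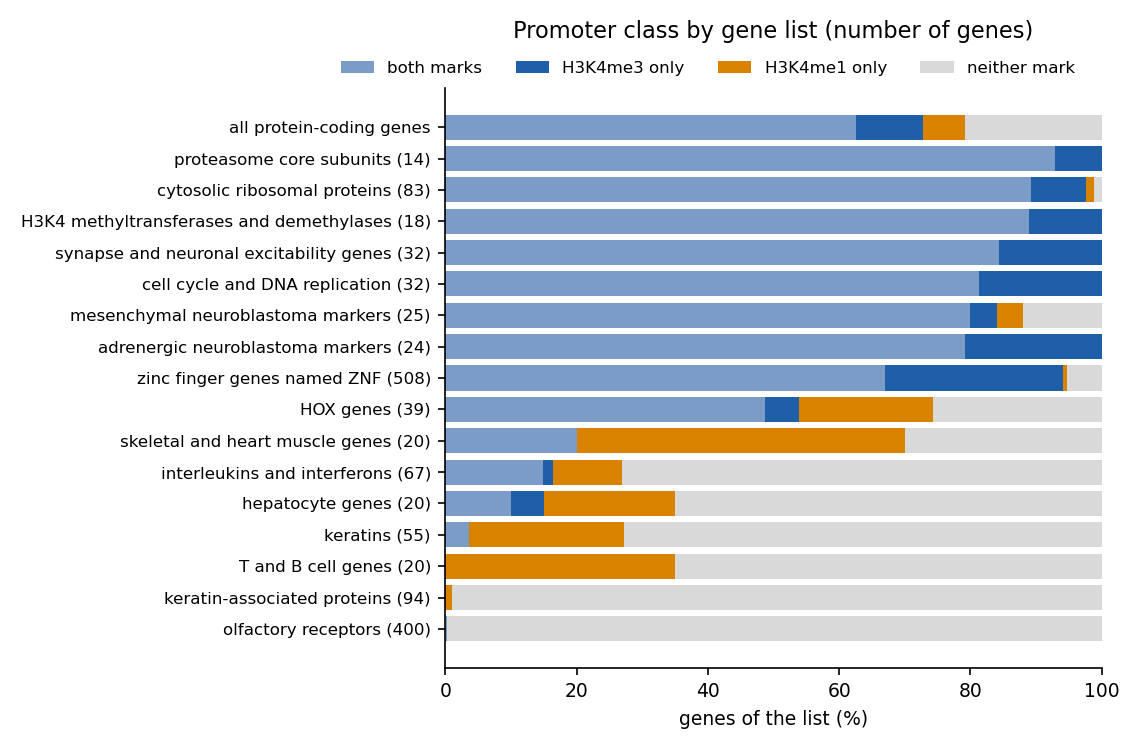
Share of the genes of each list (%) in the 4 promoter classes, with the number of genes in brackets and all 19970 protein-coding genes on top. The ZNF genes have the longest H3K4me3-only segment (27.2%) and the muscle genes the longest H3K4me1-only segment, at 10 of 20 genes.

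Markers of the adrenergic neuroblastoma state, the noradrenergic neuron-like identity of such cells, all carried H3K4me3. Of 24, 19 had both marks and 5 had only H3K4me3, among them HAND2, ISL1, SIX3 and TFAP2B, which encode developmental transcription factors. H3K27ac was present at 24 of 24 and H3K27me3 at 0 of 24, against 66.2% and 23.8% of all genes. Their H3K4me3 was unusually broad, with a median region of 8016.5 bp and 19 of 24 regions of 5 kb or more, against 3.86% of the 14521 genes with H3K4me3 (561 genes). Of 25 mesenchymal markers 20 had both marks, 1 only H3K4me3 (SNAI2), 1 only H3K4me1 (MEOX1) and 3 neither (COL3A1, TNC and TWIST2). H3K27me3 lay at 15 of these 25 and H3K27ac at 9, against the same shares of all genes, and 3 of the 21 with H3K4me3 had a region of 5 kb or more. How much a wide H3K4me3 region, by filling the promoter window, contributes to the absence of H3K4me1 was not tested.

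Single genes of the neuroblastoma circuit show these arrangements. RUNX1T1, the co-repressor that the hairpin targets and that no doxycycline was given to deplete here, had both marks in 3 of 3 lists. Its H3K4me3 fold enrichment was 36.6, 53.3 and 23.6 in replicates 1, 2 and 3 and its H3K4me1 fold enrichment 3.98, 2.93 and 2.93. The H3K4me3 region of 5305 bp met an H3K4me1 region of 17147 bp.

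HAND2, a transcription factor of sympathetic neurons, lay in an H3K4me3 region of 24532 bp with a fold enrichment of 29.4, 32.9 and 17.0. H3K4me1 was present in 0 of 3 lists within 1 kb of its starts, and the nearest H3K4me1 region was 5.88 kb away. H3K4me2 was also present in 0 of 3 lists there, and H3K27ac in 3 of 3. At ISL1, which specifies motor and sympathetic neurons, the H3K4me3 region of 10949 bp also came with H3K4me1 in 0 of 3 lists, but with H3K4me2 in 3 of 3. The nearest H3K4me1 region was 1.36 kb from a start.

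Other members of the circuit had wide H3K4me3 together with H3K4me1. At GATA3 the H3K4me3 region spanned 19177 bp, at TBX2 10337 bp, at TCF4 8114 bp and at PHOX2A 7530 bp, and all 4 had H3K4me1 in 3 of 3 lists. The partners of RUNX1T1 in the repressor complex (HDAC1, KDM1A and RCOR3), the MYCN partner MAX, and CLNS1A, GSPT1, NAP1L1 and TCF12 had both marks in 3 of 3 lists. ABCA10, which the study used as a gene without MYCN binding, had H3K4me3 in 0 of 3 lists, H3K4me1 in 1 and H3K27me3 in 3.

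MYCN was classed as having only H3K4me1, on values unlike those of other genes. H3K4me1 had a peak in 3 of 3 lists with a fold enrichment of 1.16, 1.11 and 1.13, and H3K4me3 in 2 of 3 with 1.18 and 1.19. The 10th percentile of the peaks of a list was 2.00 to 2.06 for H3K4me1 and 3.60 to 3.67 for H3K4me3, so all values at MYCN lay under it. The amplified copies are in the input as well as in the ChIP, and their part in these low ratios was not tested.

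The 10 genes of the strict H3K4me3-only group with the highest ranks were SEPTIN7, TOB2, YEATS2, WASF1, PAK2, H2AC19, ANKHD1, ANKHD1-EIF4EBP3, HNRNPA2B1 and WASL. They include actin regulators (WASF1, WASL and the kinase PAK2) and an RNA-binding protein (HNRNPA2B1). Each also had H3K4me2 and H3K27ac in 3 of 3 lists, against consensus shares of 65.3% and 87.1% over all strict H3K4me3-only genes. SEPTIN7 ranked first, with a fold enrichment of 39.6, 44.5 and 24.3 and a region of 4214 bp. Their nearest H3K4me1 regions were close, between 1.01 kb for WASF1 and 2.03 kb for TOB2, so all 10 had consensus H3K4me1 just beyond the 1 kb window. ANKHD1 and the read-through gene ANKHD1-EIF4EBP3 share the same peaks, and H2AC19 belongs to a histone family with near-identical copies, which makes its call uncertain.

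The 10 genes of the strict H3K4me1-only group with the highest ranks were GPT, PAQR6, CPA1, MLC1, KRT15, KRT19, APCDD1L, EPS8L3, C17orf99 and LCN8. Most are known from other tissues, such as the liver transaminase GPT, the carboxypeptidase CPA1 and the keratins. GPT had an H3K4me1 fold enrichment of 6.51, 4.99 and 4.02 over a region of 9888 bp, and CPA1 of 5.28, 4.92 and 3.42 over 2256 bp. All 10, picked for strong H3K4me1, had H3K27ac in 3 of 3 lists. Over all strict H3K4me1-only genes consensus H3K27ac lay at 40.1% and H3K4me2 at 20.5%. H3K4me2 was in 3 of 3 lists at 8 of the 10 and in 1 of 3 at PAQR6 and APCDD1L. KRT15 and KRT19 share 1 H3K4me1 region of 32285 bp. The nearest H3K4me3 region was 1.32 kb away for KRT19 and 55.4 kb for CPA1, with the other 8 in between.

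Flanking ranged widely between start sites. Among 14440 consensus H3K4me3 regions within 1 kb of a start, 30 had H3K4me1 running to the 10 kb limit on both sides, and the first 5 in genome order lay at SAMD11 (2 regions), CASZ1, SDC3 and EPAS1. CASZ1 and EPAS1 encode transcription factors, the latter of the response to low oxygen. The CASZ1 region, chr1:10693173-10695676, was 2504 bp wide. In contrast 1751 regions had no consensus H3K4me1 inside or within 1 kb. The 5 widest of these were 8936 bp at SOX11 (chr2:5689743-5698678), 7217 bp at LRRTM1 and CTNNA2, 7020 bp at KMT2E, 6743 bp at MAOA and 6569 bp at BCL2. SOX11 encodes a transcription factor of immature neurons, MAOA an enzyme that degrades monoamines, and BCL2 an inhibitor of cell death.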

How the data were processed

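The authors aligned reads to hg38 with Bowtie2, kept alignments of mapping quality 30 or more and called peaks of each library against input with MACS2 2.1.1.20160309. Per the file headers, H3K4me1 was called in broad mode (q 0.05, weaker regions linked at q 0.1) and H3K4me3 in narrow mode (p 1e-05), although the study's methods give 1 threshold for all marks. Reads were treated as single-ended. Replicates 1 and 3 list an input of the same size (81.5 M reads) and appear to share it. The deposited pileup (signal, or fragment coverage) was not used. The deposited −log10 q-value (and −log10 p-value) ranked or filtered peaks within a list, and the deposited fold enrichment, a ratio of ChIP to local input, described them. No read counts were used, so the lists were compared by where peaks lie, and thresholds of the caller and the depth of each library can move every share.

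Starts of 19970 protein-coding genes (146165 start sites) came from GENCODE 44. Overlap meant 1 bp shared. Intervals were handled in python 3.11.15 with numpy 2.4.6 and pandas 2.3.3, tested on simulated data and checked against bedtools 2.31.1. Lists of 3 against 3 were compared with exact two-sided permutation tests. Members, gene lists and rules were chosen with earlier results of these data known. Named genes were the genes of the study's model, the 10 strongest strict genes of each one-mark group, the most and least flanked regions and up to 4 members of a list per class in alphabetical order, and sequence was shown for the first 3 strict genes per mark off chromosome 8. Some genes and 1 sequence under these rules are not reported here. Genes named outside that rule (TFAP2B and the marked exceptions of a list) were chosen after their values were seen. Alternatives were stricter q thresholds, lists of equal length, other windows, start sites and overlaps, left-out replicates and the MYCN region, and the doxycycline lists.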

Additional observations from a re-analysis of the deposited data

How the results depend on the processing

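Of 168 values under alternatives, 10 turned direction, 2 fell to 0 and 16 moved beyond the replicate spread (1.5 times for a count). The other 140 kept their direction or stayed within that limit, though not all kept their size. They include the sign-flip tests within pairs, which change the p-value and by design leave the difference as it is. The differences in share of peaks near starts, in distance, in covered bases and in CpG ratio kept their direction under all alternatives. So did those in H3K4me2 and H3K27ac, which shrank. With q 1e-10 or less the H3K27ac difference fell from 52.6 to 2.99 percentage points (exact permutation p = 0.4) and that in H3K4me2 from 55.0 to 13.8, and with lists of equal length they were 16.7 and 33.4. The difference in H3K27me3 went from -24.1 to -8.78 percentage points with q 0.001 or less, and turned to 9.50 with q 1e-10 or less and to 1.04 with lists of equal length. The downstream excess fell from 242 to 88 bp with q 0.001 or less. With q 1e-10 or less and with lists of equal length the median length was 0 bp on both sides, where no excess can appear. Most other changes came with fewer H3K4me1 peaks. Every H3K4me3 peak had a −log10 q of at least 3.09, so the setting of q 0.001 or less removed H3K4me1 peaks only. With q 0.001 or less, q 1e-10 or less and lists of equal length in turn, genes with both marks numbered 6995, 403 and 3720, with only H3K4me3 7526, 13970 and 10764, and with only H3K4me1 630, 63 and 398. Both sides were then flanked at 53.5, 14.3 and 31.6% of peaks, and at 30.3% where at least 50% of the flank had to be covered. The log2 ratio of the one-mark classes became 2.41, 5.87 and 4.21, and 0.00508 in the doxycycline lists, 0.62 with 1 start site per gene, 1.32 with a 500 bp promoter and 0.36 with at least 200 bp covered. Leaving out each replicate in turn moved it between -0.58 and 0.31. It moved genes with only H3K4me3 between 1322 (without replicate 2) and 2247. The 500 bp promoter gave 3665 such genes and a consensus of 2 of 3 lists gave 1010. The cause was not tested beyond the fewer peaks that each stricter setting leaves.

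The replicate numbers paired the libraries only weakly by the correlation of deviations in promoter presence. It was 0.0228, 0.0258 and 0.0344 for same-numbered lists and between -0.0286 and 0.00144 for the others. With the numbers as a replicate block, the exact sign-flip test over 3 pairs gave p = 0.25, its smallest value, for 9 of 10 comparisons, such as the difference of 45.1 percentage points near starts, and 0.75 for the log2 ratio of -0.12. Every H3K4me1 list correlated best with the H3K4me3 list of its own number. With 3 lists a mark, no exact test here can pass 0.05, and the fold enrichment of H3K4me1 (median 2.27 to 2.60) limits which of its weaker regions were called.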
